A study of Arabidopsis thaliana with 12 samples.

Results

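The 35 genes described here are the phosphate starvation and phosphate transport genes of Arabidopsis thaliana, out of 27366 loci listed in the tables. They were taken from a list of loci built on gene function and chosen with earlier results of these data known. The list holds 7 genes of phosphate signalling, 10 of phosphate transport, 7 phosphatases and nucleases, and 11 of membrane lipid remodelling. RNA came from whole seedlings, either control or exposed to volatile compounds released by the fungus Tolypocladium inflatum, strain GT22, and was sampled at 3, 24 and 48 h. Each of the 6 groups had 2 libraries, 12 in all. The plant accession, its age, the phosphate supply and the treatment of the controls are not stated in the labels. The study asked which molecular responses the fungal volatiles set off in the plant. Levels are FPKM, the fragments of a transcript scaled by its length and by the total mapped, and the authors deposited 1 level per gene and group, so levels of different genes can be set side by side within 1 table, while the spread between libraries and the sequencing depth are unknown. Since the labels do not tell separate cultures from repeat preparations, the p-values may measure technical spread alone. In RNA from whole seedlings, fewer cells of a type and less RNA per cell cannot be told apart.

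Plants take up phosphorus as inorganic phosphate, which is often scarce in soil. When it runs short, the transcription factor PHR1 binds a short DNA element named P1BS and activates genes that recover, import and save phosphate, while SPX proteins hold PHR1 back when phosphate is plentiful. The microRNA miR399 removes the mRNA of PHO2, an enzyme that marks phosphate transporters for degradation, and the non-coding RNA IPS1 traps miR399. Starved plants also break down phospholipids and replace them with galactolipids and sulfolipids, which contain no phosphorus.

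Stretches upstream of 5 of the genes that had a p-value under 0.05 at some time were searched for P1BS and are shown. They were read from the RefSeq genome TAIR10.1, each on the strand of its gene and ending at the base before the annotated gene start, with matches to P1BS in capitals. The element searched was GNATATNC, which reads the same on both strands. For PPsPase1, on chr1:27466349-27466648, minus strand, there was 1 match, 217 bases before the gene start.
PPsPase1: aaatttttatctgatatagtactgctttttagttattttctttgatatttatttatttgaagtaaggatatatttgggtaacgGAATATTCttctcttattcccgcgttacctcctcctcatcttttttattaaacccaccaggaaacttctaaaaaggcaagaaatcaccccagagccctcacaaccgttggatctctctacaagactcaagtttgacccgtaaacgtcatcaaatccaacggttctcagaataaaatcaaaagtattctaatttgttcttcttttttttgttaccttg
For MGD3, on chr2:4742862-4743161, plus strand, there was no match in this window.
MGD3: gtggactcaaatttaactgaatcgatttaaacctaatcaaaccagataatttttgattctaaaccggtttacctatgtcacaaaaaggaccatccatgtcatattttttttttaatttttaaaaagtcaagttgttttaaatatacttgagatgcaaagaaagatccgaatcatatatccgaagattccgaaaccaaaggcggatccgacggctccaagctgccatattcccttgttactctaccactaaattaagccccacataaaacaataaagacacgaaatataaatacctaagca
For SPX3, on chr2:18606110-18606409, plus strand, there were 2 matches.
SPX3: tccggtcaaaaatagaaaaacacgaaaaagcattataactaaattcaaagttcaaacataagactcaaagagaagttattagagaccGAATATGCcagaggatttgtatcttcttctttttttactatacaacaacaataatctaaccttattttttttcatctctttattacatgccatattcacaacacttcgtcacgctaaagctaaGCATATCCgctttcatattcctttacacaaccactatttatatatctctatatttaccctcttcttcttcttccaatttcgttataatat
For GDPD1, on chr3:350011-350310, minus strand, there were also 2 matches.
GDPD1: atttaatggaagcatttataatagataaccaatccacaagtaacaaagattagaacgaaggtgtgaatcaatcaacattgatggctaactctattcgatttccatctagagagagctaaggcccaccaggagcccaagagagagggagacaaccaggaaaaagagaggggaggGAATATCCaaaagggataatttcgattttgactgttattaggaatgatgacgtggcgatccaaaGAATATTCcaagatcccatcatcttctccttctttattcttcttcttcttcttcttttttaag
PEPC1 had no match in its 300 bases but 2 farther out, on the minus strand, 362 and 757 bases before the gene start, shown with 40 bases on either side (chr1:6092342-6092429 and chr1:6092737-6092824).
PEPC1 near site: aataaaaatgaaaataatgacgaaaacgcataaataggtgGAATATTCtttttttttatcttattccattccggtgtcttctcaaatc
PEPC1 far site: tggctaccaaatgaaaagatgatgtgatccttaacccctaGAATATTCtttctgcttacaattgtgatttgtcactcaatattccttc

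Within 300 bases of the gene start, 7 of the 35 genes (20%) held a P1BS match: SPX3, PHT1;2, PPsPase1, MGD2, NPC4, PLDZ2 and GDPD1. The same window held one in 6.50% of 27443 protein-coding genes. With 1000 bases, a window chosen after the shorter one had been read, 18 of the 35 genes (51.4%) and 20.3% of protein-coding genes held a match. MGD3 had no match in either window. Of the genes with a p-value under 0.05 at some time that are not shown, RNS1 had no match in either window. PHO2 had 1 in the longer window alone. These are matches of letters, and binding was not measured here.

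**Figure D1:**
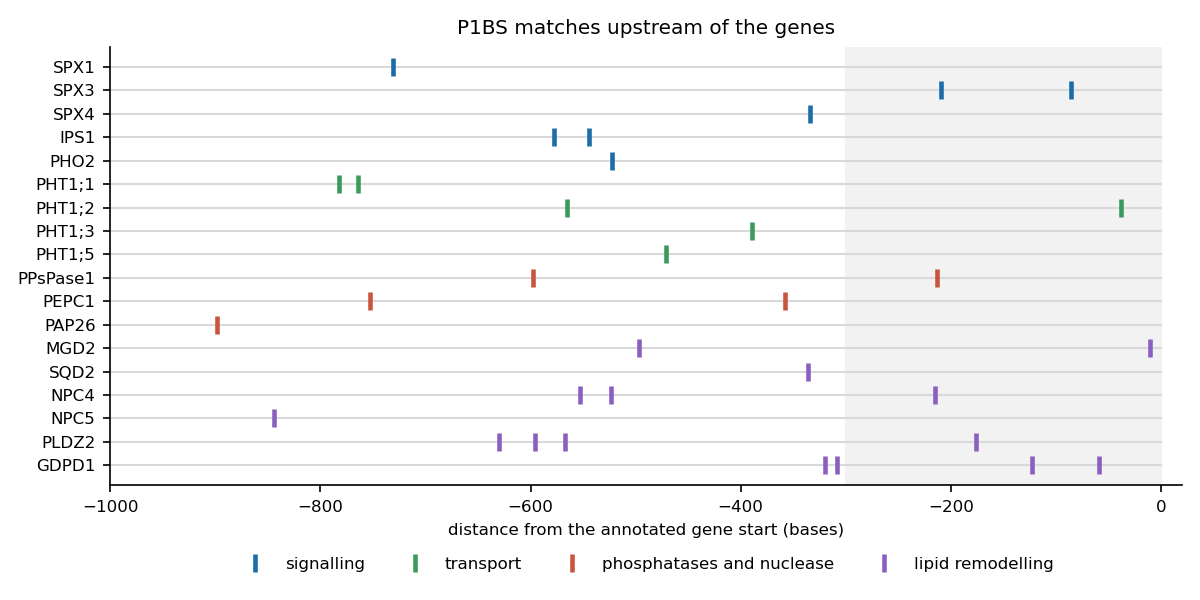
Positions of P1BS matches in the 1000 bases before the annotated gene start, in bases (horizontal axis), for the 18 genes with at least 1 match; each bar is 1 match, coloured by the role of the gene, and the shaded part is the 300-base window. The 7 genes with a match in the shaded part include PPsPase1, at 217 bases, while the 2 matches of PEPC1 lie outside it.

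The RNA partners of the PHO2 branch are shown because PHO2 and IPS1 are both members and meet through miR399. The targeting miR399 strand from each of the 6 loci MIR399a to MIR399f had the seed GCCAAAG (bases 2 to 8, in capitals), and MIR399b and MIR399c gave the same sequence. RefSeq also annotates the other arm of MIR399c, with the seed GGCAUCU, which was not used here. Levels of mature miR399 were not analysed here.
MIR399b: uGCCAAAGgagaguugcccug
MIR399f: uGCCAAAGgagauuugcccgg
In the target sites, capitals mark bases that form Watson-Crick pairs with the named miRNA. IPS1 carries a site for MIR399b on chr3:3051224-3051247, plus strand, with 18 paired bases and a bulge of 3 bases in the middle, the feature that is known to prevent cleavage.
IPS1 site: uuGGGCAACUucuaUCCUUUGGCA
PHO2 carries 5 such sites ahead of its coding sequence, with no bulge. The one shown, for MIR399f, lies on chr2:14281884-14281904, minus strand, and pairs at 19 of 21 bases, with G-U pairs at the other 2.
PHO2 site: uuGGGCAAAUCUCCUUUGGCA

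At 3 h, 2 of the 32 tested genes fell under the volatiles and none rose, by the q-values of the authors' deposited table at a threshold of 0.05. The genes that fell were PPsPase1, a pyrophosphatase that releases phosphate from pyrophosphate, and MGD3, which makes galactolipid during starvation. Of all 19480 tested rows at 3 h, 0.113% were called, and 0.0565% were called lower. No gene of the list was called at 24 h, where 0.124% of 19326 rows were, or at 48 h, where 0.252% of 19415 rows were. At an unadjusted p-value under 0.05, the authors' deposited table had 4 lower and 1 higher gene of the list at 3 h. It had 4 lower and 0 higher at 24 h, and 1 lower and 0 higher at 48 h. Among the 4 at 24 h was the row that merges SPX3 with AT2G45135. The shares of all tested rows under that p-value and lower were 1.28%, 1.96% and 1.22% at the 3 times, and those higher were 0.955%, 1.01% and 1.55%. For the genes of the list, the lower share was 12.5% at 3 h and at 24 h, and 3.125% at 48 h. Their higher share was 3.125% at 3 h and 0% at 24 and 48 h. The list was chosen with earlier results of these data known, so these shares were not tested against those of all rows. PHT1;3, PHT1;5 and NPC5 were not tested at any time.

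**Figure D2:**
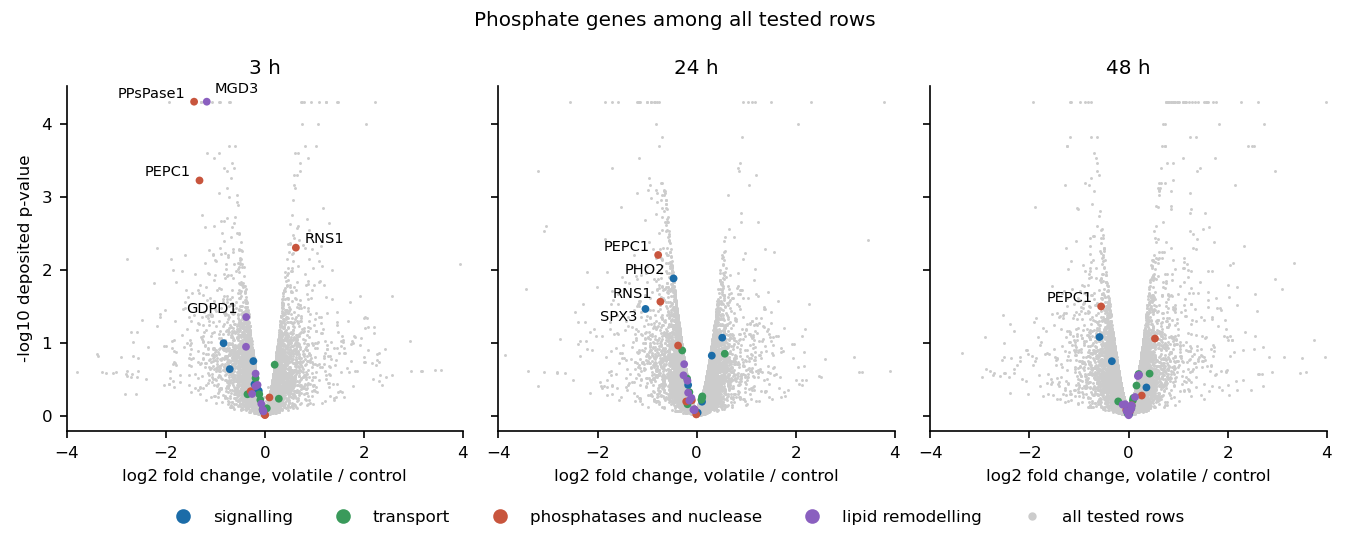
Log2 fold change of volatile over control (horizontal axis) against the -log10 of the p-value in the authors' deposited table (vertical axis) at each time; grey points are all tested rows within the axis range, coloured points are the phosphate genes by role, and names mark those with a p-value under 0.05. PPsPase1 and MGD3 share the smallest p-value of the 3 h table, 5e-05, which is also the smallest at 24 and 48 h. PEPC1 is named at all 3 times.

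Among the phosphatases and nucleases, PPsPase1 (AT1G73010, TAIR10 chromosome 1, 27464572 to 27466256) stood at 20.2 FPKM in controls and 7.50 FPKM under volatiles at 3 h. It stood at 15.7 and 12.1 FPKM at 24 h, and at 14.2 and 13.8 FPKM at 48 h. The volatile level was thus below the control level at each time, with the gap called at 3 h alone. The authors' deposited table gives PPsPase1 a q-value of 0.0443 at 3 h. Every row at the smallest p-value of that table, 5e-05, has that q-value, MGD3 among them, so it does not rank those rows. The log2 fold change of PPsPase1 at 3 h was -1.43, with an error of 0.30. Each such error is the fold change divided by the deposited statistic. No header states that reading of the statistic, and it gave a larger p-value than the deposited one in 95 of the 96 tests of genes of the list, PPsPase1 at 3 h being the exception. Of the 10 deposited p-values under 0.05 in the list, 6 belong to a gene whose 95% interval from that error holds 0: GDPD1 at 3 h, SPX3, PHO2, PEPC1 and RNS1 at 24 h, and PEPC1 at 48 h. The log2 fold changes of PPsPase1 at 24 and 48 h were -0.37 (error 0.34) and -0.05 (error 0.30).

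PEPC1 (AT1G17710, chromosome 1, 6090560 to 6092027) encodes a phosphatase of phosphoethanolamine and phosphocholine, the head groups freed from phospholipids, and its coding sequence was 81.4% identical to that of PPsPase1. It stood at 4.60 and 1.84 FPKM in controls and under volatiles at 3 h, at 13.0 and 7.57 FPKM at 24 h, and at 10.1 and 6.86 FPKM at 48 h. PEPC1 was the one gene of the list with a p-value under 0.05 at all 3 times, lower under volatiles at each. Its log2 fold changes were -1.32 (error 0.49), -0.78 (error 0.40) and -0.55 (error 0.37), and the p-values that the authors' deposited table gives were 0.0006, 0.0063 and 0.0319. The 95% intervals from those errors were -2.29 to -0.35 at 3 h, -1.56 to 0.01 at 24 h and -1.27 to 0.17 at 48 h, the later ones holding 0. None passed the threshold, the lowest q-value of PEPC1 in the authors' deposited table being 0.254, at 3 h.

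RNS1 (AT2G02990, chromosome 2, 873506 to 874811), a secreted ribonuclease that frees phosphate from RNA, did not keep 1 direction. It stood at 8.95 in controls and 13.8 FPKM under volatiles at 3 h, at 5.84 and 3.51 FPKM at 24 h, and at 4.25 and 6.15 FPKM at 48 h. The p-values in the authors' deposited table were 0.005, 0.0275 and 0.088, with no q-value under 0.05. The purple acid phosphatases, which split phosphate from organic compounds, had no p-value under 0.05. PAP26, the main vacuolar and secreted enzyme, was the most abundant, at 128 FPKM in both groups at 3 h and at 106 and 103 FPKM at 24 h. PAP10, a root-surface enzyme, stood at 41.4 and 41.6 FPKM at 3 h, and PAP12, a secreted enzyme, at 43.0 and 45.9 FPKM. PAP17, induced by starvation and by senescence, stood at 27.6 and 22.7 FPKM. Its row has the same bounds as that of AT3G17800, which is listed separately at 32.6 and 32.7 FPKM. Of these 4, the widest log2 fold change at 3 h was that of PAP17, -0.28 with an error of 0.55.

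**Figure D3:**
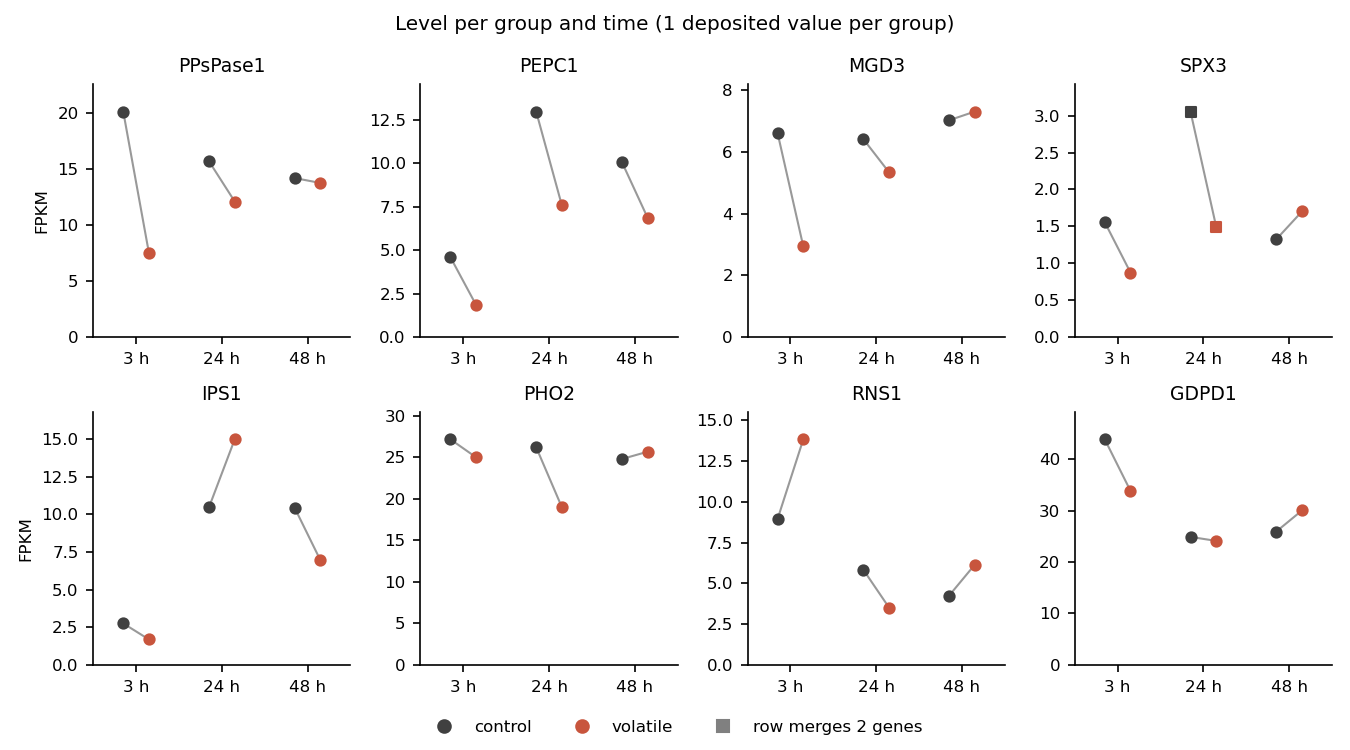
FPKM (vertical axis, from 0) of 8 genes in control and volatile seedlings at 3, 24 and 48 h; each point is the 1 value deposited per group, so no error bar can be drawn, and squares mark a row that merges SPX3 with a neighbour. PPsPase1 goes from 20.2 to 7.50 FPKM at 3 h and lies at 14.2 and 13.8 FPKM at 48 h, whereas PEPC1 is lower under volatiles at all 3 times.

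In lipid remodelling, MGD3 (AT2G11810, chromosome 2, 4743322 to 4746780) stood at 6.62 FPKM in controls and 2.94 FPKM under volatiles at 3 h, at 6.42 and 5.35 FPKM at 24 h, and at 7.03 and 7.32 FPKM at 48 h. The gap at 3 h was called, at a log2 fold change of -1.17 (error 0.35), and the authors' deposited table gives a q-value of 0.0443. When the statistic was instead treated as a standard normal value, MGD3 was no longer called and PPsPase1 still was. MGD2, the related synthase with 73.8% coding identity, stood at 4.28 and 3.29 FPKM at 3 h, where the authors' deposited table gives a p-value of 0.114. GDPD1 (AT3G02040, chromosome 3, 344828 to 350010 at 3 h), which splits glycerophosphodiesters left from phospholipids, stood at 43.9 and 33.9 FPKM at 3 h. It stood at 24.9 and 24.1 FPKM at 24 h and at 25.9 and 30.0 FPKM at 48 h. In the authors' deposited table its p-value at 3 h was 0.0447, and its log2 fold change was -0.37 (error 0.26). The bounds given are shared with the row of the neighbour AT3G02030, listed separately and below 3 FPKM in each group at every time. The labels do not say how reads were divided within such a shared stretch.

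The remaining lipid genes had no p-value under 0.05. SQD1 and SQD2, which make sulfolipid, stood at 84.2 and 43.6 FPKM in controls at 3 h and at 82.8 and 38.4 FPKM under volatiles. UGP3, which supplies UDP-glucose for sulfolipid, stood at 52.6 and 47.5 FPKM in a row that shares its bounds with AT3G56030, listed at 3.98 and 4.50 FPKM. DGD1, a galactolipid synthase, stood at 11.7 and 11.1 FPKM. DGD2, the synthase induced by starvation, lay in a row shared with AT4G00560 and AT4G00570 at every time, and the row's 76.4 and 74.3 FPKM at 3 h are not its own level. The phospholipases were low: NPC4 stood at 0.946 and 0.793 FPKM and PLDZ2 at 2.40 and 2.11 FPKM at 3 h. NPC5, whose coding sequence is 87.3% identical to that of NPC4, was listed at 0 in both groups at all times, and the sources used here do not say how reads were split between such copies. All 9 lipid genes tested in rows that name 1 gene had a log2 fold change below 0 at 3 h, and 9 of 9 did at 24 h. Without the rows whose bounds a neighbour shares, among them PLDZ2 at 24 h, the counts were 7 of 7 and 6 of 6. At 48 h the count over all 9 was 3, and the median log2 fold changes at the 3 times were -0.19, -0.15 and 0.06. Of all tested rows, 52.4%, 54.7% and 51.0% were below 0.

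In the signalling branch no gene was called. PHR1 (AT4G28610), the regulator itself, stood at 23.2 and 22.8 FPKM in controls and under volatiles at 3 h, a log2 fold change of -0.02 (error 0.24). At 24 h it stood at 26.3 and 26.7 FPKM, and at 48 h at 27.4 and 27.1 FPKM. Its log2 fold change thus lay within 0.03 of 0 at each time. SPX1, an inhibitor of PHR1 and the most abundant of the SPX genes, stood at 59.9 and 51.1 FPKM at 3 h, 43.8 and 38.9 FPKM at 24 h, and 42.1 and 43.8 FPKM at 48 h. SPX2, its close relative, stood at 15.9 and 14.2 FPKM at 3 h, and SPX4, which holds PHR1 in the cytosol, at 7.07 and 6.13 FPKM. SPX3, a strongly starvation-induced member, was the least abundant of the branch, at 1.56 and 0.876 FPKM at 3 h and at 1.32 and 1.70 FPKM at 48 h. At 24 h its row, merged with AT2G45135, stood at 3.06 and 1.49 FPKM, and its p-value was 0.0345 by the authors' deposited table. The value at 24 h is therefore not that of SPX3 alone.

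IPS1 (AT3G09922, chromosome 3, 3050989 to 3051530), whose site for miR399 is shown above, stood at 2.75 FPKM in controls and 1.69 FPKM under volatiles at 3 h, at 10.5 and 15 FPKM at 24 h, and at 10.4 and 6.94 FPKM at 48 h. Its p-values of 0.231, 0.0855 and 0.0838 in the authors' deposited table leave no direction to report. PHO2 (AT2G33770), the target of miR399, stood at 27.2 and 25.0 FPKM at 3 h, 26.2 and 19.0 FPKM at 24 h, and 24.8 and 25.7 FPKM at 48 h. Its row at 3 h shared its bounds with AT2G33760, listed at 1.32 and 1.47 FPKM, and those at 24 and 48 h did not. At 24 h its log2 fold change was -0.47 (error 0.26), for which the authors' deposited table gives a p-value of 0.0132 and no passing q-value. All 7 signalling genes had a fold change below 0 at 3 h, against 2 of 6 in rows that name 1 gene at 24 h and 3 of 7 at 48 h.

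Transport genes had no p-value under 0.05 at any time. PHT1;1, a main phosphate importer of the root, was the most abundant of the 35 at 24 and 48 h, and stood at 105 and 121 FPKM in controls and under volatiles at 3 h, 155 and 136 FPKM at 24 h, and 110.4 and 118 FPKM at 48 h. PHT1;4, the other main importer, stood at 40.6 and 37.6 FPKM at 3 h, 41.5 and 33.9 FPKM at 24 h, and 31.1 and 33.0 FPKM at 48 h. Neither was called, with errors of 0.23 to 0.27 on the log2 scale. At 24 h the log2 fold changes of PHT1;1 and PHT1;4 were -0.19 (95% interval -0.72 to 0.34) and -0.29 (-0.81 to 0.22). Equal levels in the 2 groups are therefore not shown. PHO1, which loads phosphate into the xylem, stood at 27.9 and 28.7 FPKM at 3 h, and its relative PHO1;H1 at 5.37 and 5.21 FPKM. PHF1, which lets PHT1 proteins leave the endoplasmic reticulum, stood at 24.9 and 23.4 FPKM, and G3Pp1, a glycerol-3-phosphate permease, at 17.6 and 15.5 FPKM. PHT1;2 and PHT1;9, root importers, were below 2 FPKM in both groups at every time. PHT1;5, which moves phosphate between organs, was below 0.5 FPKM in each group, and PHT1;3 was listed at 0 at 3 and 48 h. Coding sequences of PHT1;1 and PHT1;2 are 97.7% identical and those of PHT1;1 and PHT1;3 are 90.3% identical, so the division of reads among these 3 genes is uncertain. Below 0 were 5, 4 and 2 of the 8 tested transport genes at 3, 24 and 48 h. The shares of all tested rows below 0 were 52.4%, 54.7% and 51.0%.

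**Figure D4:**
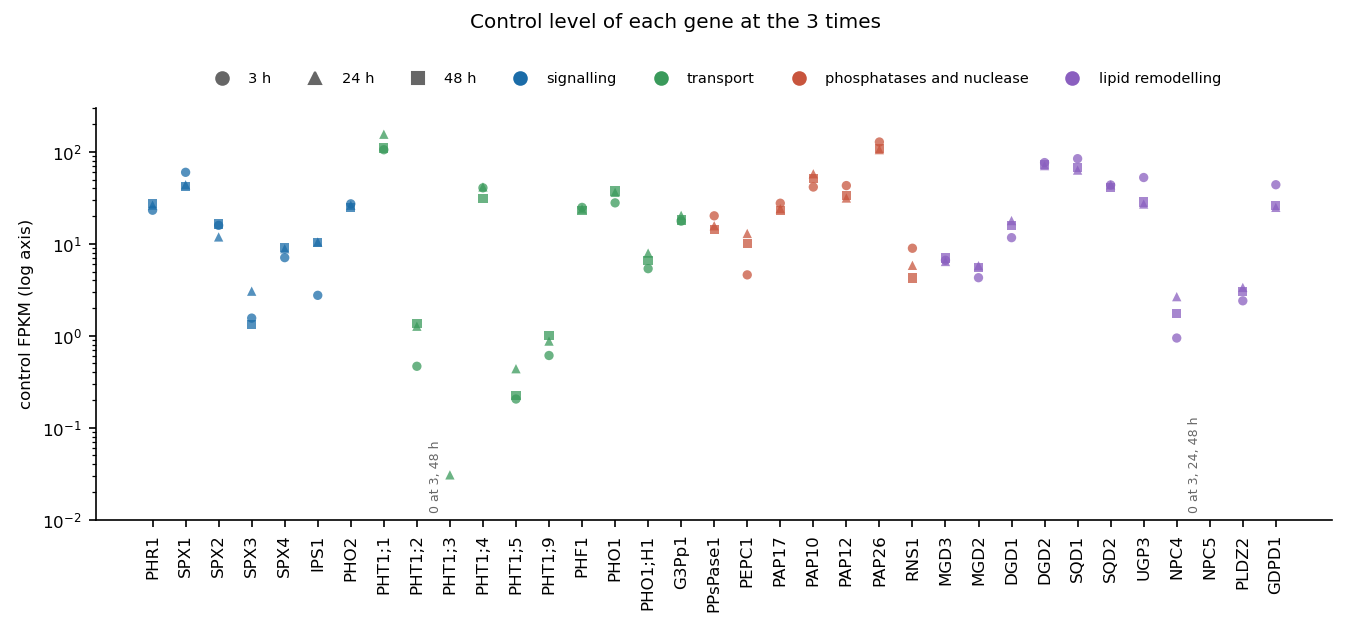
FPKM in control seedlings (vertical axis, logarithmic) of each of the 35 genes at 3 h (circles), 24 h (triangles) and 48 h (squares), coloured by role; values listed at 0 cannot be drawn and are written beside the axis. Levels run from PHT1;3 and NPC5, listed at 0, to PAP26 and PHT1;1 above 100 FPKM.

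Over the whole list, 24 of 31 genes tested in rows that name 1 gene had a fold change below 0 at 3 h (77.4%), 22 of 30 at 24 h (73.3%) and 10 of 31 at 48 h (32.3%). Among all tested rows 52.4%, 54.7% and 51.0% were below 0. Median log2 fold changes of the list were -0.16, -0.13 and 0.06, beside medians over all tested rows of -0.01, -0.02 and -0.00. Without the 4 rows at each time whose bounds a neighbour shares, an alternative added after seeing the data, 20 of 27, 18 of 26 and 9 of 27 genes were below 0, and the medians were -0.16, -0.15 and 0.06. The implied error of a single gene of the list had a median of 0.26, 0.29 and 0.28. At 24 h, 7 of 7 phosphatases and nucleases and 9 of 9 lipid genes were below 0, beside 2 of 6 signalling and 4 of 8 transport genes. Phosphatases and nucleases did not keep that direction: 3 of 7 were below 0 at 3 h and 2 of 7 at 48 h. Their median log2 fold changes at 3 and 48 h were 0.004 and 0.04. Genes with a P1BS match within 300 bases had a median log2 fold change of -0.37 at 3 h, and 6 of 7 were below 0. Those without one had a median of -0.12, and 18 of 24 were below 0. The median of the genes with a match was the value of GDPD1, whose interval, -0.89 to 0.14, held 0. Its row shares its bounds with a neighbour. SPX3, PHT1;2 and NPC4, which also have a match, had errors of 0.71, 0.76 and 0.55. Of the lowest fold changes at 3 h, PPsPase1 (-1.43) had a match, while PEPC1 (-1.32) and MGD3 (-1.17) had none. The difference between the medians was not tested. At 24 h the medians were -0.11 and -0.13, and at 48 h 0.13 and 0.05.

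**Figure D5:**
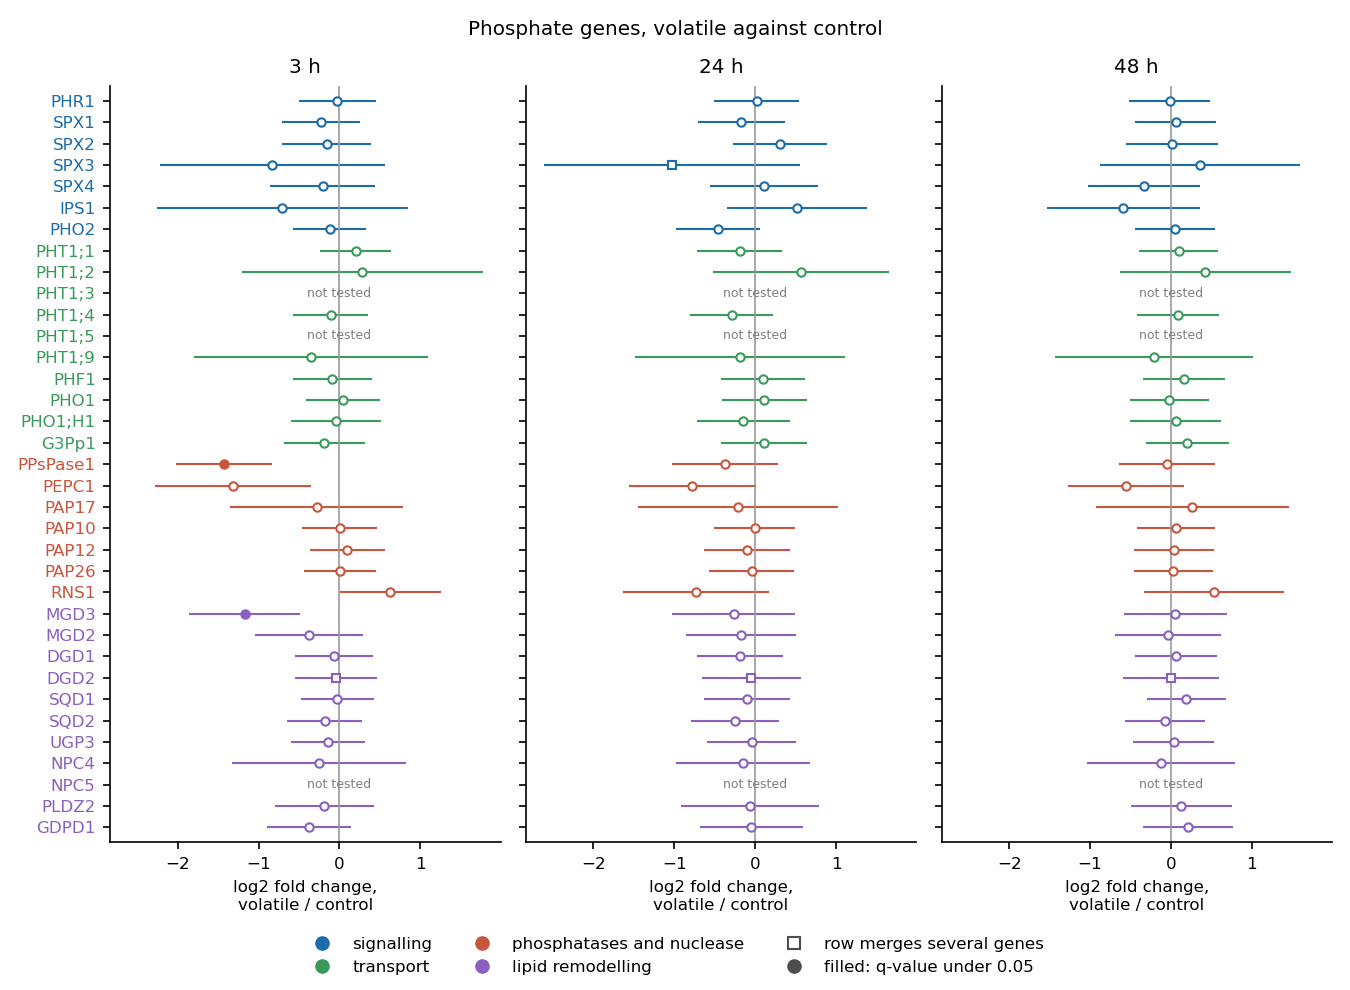
Log2 fold change of volatile over control (horizontal axis) of each gene at the 3 times; points are coloured by role, lines are 95% intervals from the implied error, filled points passed a q-value of 0.05 by the authors' deposited table, and squares are rows that merge several genes. At 3 h PPsPase1, at -1.43, and MGD3, at -1.17, are the only filled points, and at 48 h 21 of 31 points from rows of 1 gene lie above 0.

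Whether a gene responded differently at different times was tested on the difference of its log2 fold changes, with a normal test and Benjamini-Hochberg adjustment over all rows whose mean reached 1 FPKM in both tables. For the pairs 3 and 24 h, 3 and 48 h, and 24 and 48 h, 27, 28 and 29 genes of the list entered and none passed, while 0, 5 and 1 of all rows passed. Before adjustment, 2, 2 and 1 genes of the list had a p-value under 0.05. The log2 fold change of PPsPase1 was higher at 48 h than at 3 h by 1.38 (95% interval 0.54 to 2.22), with a p-value of 0.00124 before and 1.0 after adjustment. For MGD3 that difference was 1.23 (0.29 to 2.16), and for PEPC1 0.76 (-0.44 to 1.97). RNS1 differed by -1.36 from 3 to 24 h (-2.46 to -0.26) and by 1.27 from 24 to 48 h (0.01 to 2.52). The fall of PPsPase1 and MGD3 at 3 h is thus not shown to be particular to that time. Only 0.298%, 0.444% and 0.426% of all rows had an unadjusted p-value under 0.05, fewer than the 5% that the test would give in the absence of any difference. The test was therefore strict, and a gene that did not pass is not shown to respond equally across times.

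Another 47 genes of phosphate transport, signalling and recycling, outside the list, gave the wider pathway. Of these, 39 were tested at each time, and none passed the q-value threshold of 0.05 by the authors' deposited table. WRKY75, a transcription factor that activates starvation genes, stood at 4.29 and 2.13 FPKM in controls and under volatiles at 3 h, where the authors' deposited table gives a p-value of 0.0117. PHT4;5, a plastid phosphate transporter, stood at 24.4 and 17.9 FPKM at 24 h, where the authors' deposited table gives a p-value of 0.0204. Those were the 2 genes under 0.05 before adjustment, both lower, and there were 0 at 48 h. The lower share was thus 2.56% of the 39 at 3 h and at 24 h. Of all tested rows, 1.28% and 1.96% were lower under that p-value at those times. AT4, a non-coding RNA related to IPS1, stood at 60.6 and 53.5 FPKM at 3 h and at 55.8 and 69.0 FPKM at 24 h. Of those tested in rows that name 1 gene, 18 of 37 were below 0 at 3 h, 23 of 36 at 24 h and 24 of 36 at 48 h. Their median log2 fold changes were 0.01, -0.07 and -0.04. The shares of all tested rows below 0 were 52.4%, 54.7% and 51.0%.

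Markers of root, root hair and leaf were all detected, as the label of whole seedling implies. The 8 root markers summed to 296 and 303 FPKM in controls and under volatiles at 3 h, 264 and 238 FPKM at 24 h, and 257 and 250.0 FPKM at 48 h. The 6 root hair markers summed to 86.3 and 98.9, 104 and 94.3, and 109 and 105 FPKM, and the 8 leaf markers to 45606 and 47848, 46131 and 42644, and 45552 and 44013 FPKM. One marker was called, the root aquaporin TIP2;3, which fell at 24 h from 21.5 to 9.42 FPKM, and for which the authors' deposited table gives a p-value of 5e-05. TIP2;3 was also lower at 48 h, at 17.0 and 10.4 FPKM, with a deposited p-value of 0.0035. The root marker CASP1 was lower at 24 h, at 85.6 and 62.0 FPKM, with a deposited p-value of 0.036. Neither of these was called. At 3 h, where PPsPase1 and MGD3 fell, 6 of 8 root markers had a fold change below 0, with a median log2 fold change of -0.05, although their sum was higher under volatiles, PER57 standing at 118 and 134 FPKM. Below 0 at that time were 1 of 6 root hair markers and 2 of 8 leaf markers. At 24 h all 3 sums were lower under volatiles, but the markers were divided. Below 0 were 5 of 8 root, 3 of 6 root hair and 6 of 8 leaf markers, with median log2 fold changes of -0.04, -0.03 and -0.16. The part of these markers in the values of the phosphate genes was not tested.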

How the data were processed

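RNA-seq of whole seedlings was summarised by the authors in 3 tables, 1 per time, whose time is known only from the table's name. Trimmomatic 3.6, TopHat and the build TAIR10 are named per the submitters' processing notes. The program behind the tables, its normalization and its strand setting are not given in the sources used here. Deposited FPKM values were computed by the authors, 1 per gene and group, and so were the deposited p-values, q-values and test statistic, a score, for volatile against control. No column holds a value per library, so the planned limma model was not run, calls rest on the deposited q-values, at a threshold of 0.05, and no SD is given. Levels from separately built tables are set side by side without comparison. Log2 fold changes were computed again from the deposited FPKM with no pseudocount, and none is given against 0, since a value listed at 0 can be a failed estimate.

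The members and lists were chosen with earlier results of these data known. All 35 loci were found at each time, with 32 tested, and 1, 2 and 1 of them lay in rows that merge genes at 3, 24 and 48 h. Rows that merge genes stayed out of medians and counts below 0, but not out of counts of calls. Rows with no gene name (1.24%, 1.29% and 1.28%) were kept among all rows. Named with values in full were members with a p-value under 0.05 at any time, then the highest and lowest of each role. The choice of AT4, TIP2;3, IPS1, PHR1 and the further levels was made after their values were seen. Gene coordinates follow the tables and are counted from 1. P1BS matches, miR399 and target sites were read from the RefSeq assembly TAIR10.1, whose genes overlapped all 24959, 24613 and 24700 single-gene rows compared. Python 3.11.15, pandas 2.3.3, numpy 2.4.6, scipy 1.17.1, Biopython 1.88 and matplotlib 3.10.9 were used. Alternatives were another call rule, pseudocounts of 0.1 and 1 FPKM, filters on low FPKM, merged rows, centring and a longer promoter window, and rows whose bounds a neighbour shares were left out in an alternative added after seeing the data.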

Additional observations from a re-analysis of the deposited data

How the results depend on the processing

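When the statistic was treated as a standard normal value, 1 gene, PPsPase1, was called at 3 h in place of 2, and MGD3 was no longer called. Recomputed q-values, a filter on mean FPKM of at least 1 and a q-value under 0.1 left PPsPase1 and MGD3 as the 2 genes called. Of these, the recomputed q-values differed from the deposited ones at 3 h by at most 4.8e-07, and a looser threshold cannot remove a call. Neither could therefore have dropped a gene. In the 1000-base window, chosen after seeing the data, the share of genes with a P1BS match was 51.4% against 20% in 300 bases. The other 38 alternative values for counts of calls and medians were taken as the same, counts within 1.5-fold and medians within 0.1. All 63 for single named genes moved by less than the implied error of the gene. Those 63 were pseudocounts and centring, and a pseudocount cannot reverse a fold change, so the direction of these genes was not tested. List medians ran from -0.16 to -0.12 at 3 h, -0.15 to -0.10 at 24 h and 0.05 to 0.06 at 48 h. No paired analysis was possible because the tables hold 1 value per group and none per library. For the same reason, leaving out each replicate and the replicate block were not run, and whether 1 library carries the calls of PPsPase1 or MGD3 cannot be seen. Depth is unknown, so how far it limits the low genes, such as PHT1;2, NPC4 and SPX3, cannot be given.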
